A study of Homo sapiens with 28 samples.

Results

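Distal H3K27ac regions listed only in late G1 are short stretches of the human genome where a peak of this histone mark was deposited for the late G1 fraction of embryonic stem cells and for no other fraction. They were chosen from the peak lists themselves. The H3K27ac peaks of 4 cell cycle fractions were merged wherever they shared at least 1 bp. A merged region was kept when only the late G1 list had a peak in it and when it lay more than 2.5 kb from every H3K4me3 peak of any fraction. The rule kept 9037 of 49370 merged H3K27ac regions, or 31.9% of the 28317 that were distal by the same limit. Each of the 9037 regions held exactly 1 late G1 peak. The cells were human embryonic stem cells with the Fucci reporters, kept in a defined medium with heregulin, activin A, an IGF-1 analogue and FGF2. They were sorted into late G1 (KO2), early G1 (DN), S phase (AzL) and G2/M (AzH), with the same cell line and medium in all 4 groups. Each fraction had 1 ChIP-seq library for each of 4 histone marks and 1 4C-seq library for each of 2 viewpoints, and the 4 inputs were not analysed here. A fraction is a window of reporter fluorescence, so it can hold cells on either side of a phase boundary.

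The Fucci system fuses fluorescent proteins to parts of Cdt1 and geminin, proteins that are degraded in opposite parts of the cycle. Cells with the Cdt1 reporter are in G1, cells with the geminin reporter are in S, G2 or M, and cells that have just divided carry little of either. Acetylation of histone H3 at lysine 27 is written by the acetyltransferases CBP and EP300 and is found at active promoters and active enhancers. Distance from H3K4me3, a mark of promoters, leaves mostly candidate enhancers. H3K4me1, written at enhancers by KMT2C and KMT2D, is found at enhancers whether or not they are acetylated. H3K27me3 is written by Polycomb repressive complex 2 on the same lysine, so that the same lysine cannot carry both marks. In embryonic stem cells, active enhancers hold the pluripotency programme, and G1 is the part of the cycle in which such cells are known to respond most readily to signals for differentiation.

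The H3K27ac lists held 30168 peaks in early G1, 32521 in late G1, 10268 in S phase and 19525 in G2/M, and the H3K4me1 lists held 1878, 4017, 6280 and 6156 peaks in the same order. The number of reads behind each list is unknown. With 1 library per mark and fraction there was no replicate and no test between fractions. The 95% intervals given below are exact Clopper-Pearson intervals, treat regions as independent and cover counting error only. A region outside a list is a region without a called peak, which need not be without the mark. The longer a list, the more regions can be found in it alone, and counts from lists of equal length are therefore given beside the deposited ones. Coordinates are those of the files, read as hg19.

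Late G1 had more distal regions of its own than any other fraction, in the lists as deposited. There were 9037 of them, against 5154 in early G1 only, 752 in S only and 2952 in G2/M only, and 3111 distal regions had a peak in all 4 fractions. Of the 19977 distal late G1 peaks, 45.2% had no partner in another fraction. Of the distal early G1 peaks 35.7% had none, of the distal S peaks 11.2% and of the distal G2/M peaks 24.6%. This order followed the lengths of the lists. When each list was reduced to its 10268 strongest peaks, 1590 distal regions were listed only in late G1, against 881 only in early G1, 1743 only in S and 1635 only in G2/M. Within 2.5 kb of an H3K4me3 peak, another 3846 regions were listed only in late G1. Distal regions made up 70.1% of all regions found in late G1 alone (69.3 to 70.9), against 40.4% of those found in early G1 alone (39.6 to 41.3), 82.1% of those in S alone (79.5 to 84.5) and 71.1% of those in G2/M alone (69.7 to 72.5). The late G1 value lay near that of G2/M and below that of S.

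The late G1 peaks in these regions were short and low within their own list. Their median length was 150 bp (quartiles 100 and 225), against 300 bp (200 and 475) for the 10940 distal late G1 peaks that overlapped a peak of another fraction. Peaks under 200 bp made up 66.0% of the peaks listed only in late G1 and 24.03% of the shared ones. Column 6 of the deposited lists, read as the height of a peak in the authors' unstated units, had a median of 20.7 (quartiles 19.3 and 23.002), against 25.6 (21.8 and 32.0) for shared distal peaks. The tallest of the 8518 peaks with a height stood at 46.7, and the tallest shared distal peak at 185. The other 519, which lie on chromosome 22 or on a sex chromosome, have a height of 0 in the list, which was treated as missing. By height, the median peak stood at percentile 30.3 of the late G1 list, where 100 is the tallest. By the deposited score of column 7, which is present on every chromosome and more negative for taller peaks, it stood at percentile 30.7. These values come from the list that chose the regions and are a description.

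**Figure D1:**
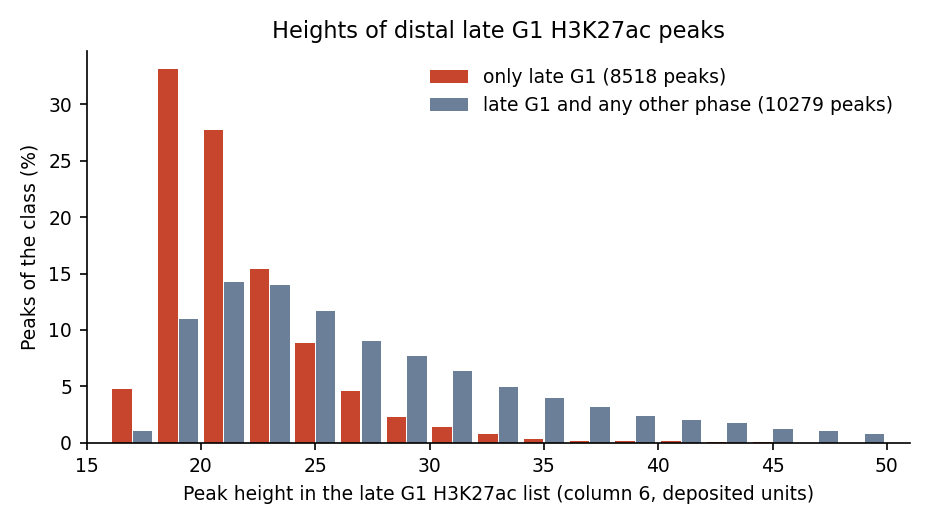
Heights of distal late G1 H3K27ac peaks in bins of 2 units, as the percentage of each class, for 8518 peaks listed only in late G1 (red) and 10279 that overlapped a peak of another fraction (blue). The classes overlap throughout the lower heights: the median is 20.7 for peaks only in late G1 and 25.6 for shared ones. The axis leaves out 18 and 6 peaks under 16, and 0 and 372 peaks of 50 or more.

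Strength in the list and presence in other fractions went together over the whole range. Among distal late G1 peaks in the weakest decile by score, 73.3% were listed only in late G1 (71.4 to 75.1). In the fifth decile this was 51.3% (49.1 to 53.4), in the eighth 25.2% (23.2 to 27.2) and in the strongest 3.56% (2.74 to 4.54). Of the 9037 regions, 6704 (74.2%) had a peak below the list's median score and 62 (0.686%) had a peak in the strongest decile. Within the eighth decile the median length was 275 bp for regions only in late G1 and 375 bp for shared ones. In the strongest decile it was 337.5 and 625 bp, but there the shared peaks reached far stronger scores, so strength was not matched. The regions found only in early G1, only in S and only in G2/M stood low in their own lists too, with medians at percentiles 25.9, 22.6 and 26.7.

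**Figure D2:**
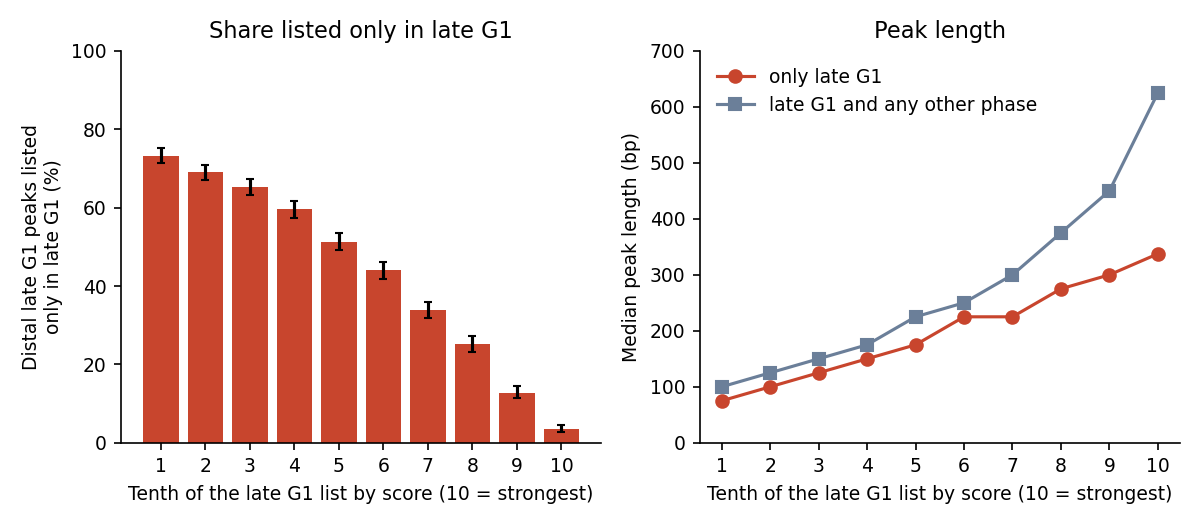
Left, the share of distal late G1 H3K27ac peaks listed in no other fraction in each decile of the late G1 list by score, with exact 95% intervals. Right, the median length of these peaks (red circles) and of distal late G1 peaks shared with another fraction (blue squares). The share is 73.3% in the weakest decile and 3.56% in the strongest.

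Heights just beyond and just within the limit of 2.5 kb overlapped. The 3 regions just beyond it lay 2501 bp from an H3K4me3 peak, at chr4:118521876-118522050, chr6:114741451-114741825 and chr2:67565451-67565550, with heights of 28.9, 23.6 and 20.3. The 3 just within it lay 2476 bp away, at chr8:66749551-66749750, chr3:172873651-172873750 and chr11:87781676-87781825, with heights of 22.7, 21.2 and 20.8. All peaks start and end on a grid of 25 bp, so no distance between 2476 and 2501 bp was possible.

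The strongest region by score had acetylated neighbours in every other fraction. It lay at chr9:19969376-19969700 with a height of 43.0 in late G1. The nearest H3K27ac peaks of other fractions were 326 bp away in early G1 (height 49.3), 526 bp in S (13.3) and 401 bp in G2/M (15.9), and the nearest region of all 4 fractions was 326 bp away. H3K4me1 peaks overlapped it in early G1 (height 23.8), late G1 (14.4) and S (17.9). Heights of different libraries are on scales that cannot be compared.

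Of the next 7 strongest regions, 6 had no H3K4me1 peak in any fraction. Such a lack was usual: 8090 of all 9037 regions had none, and only 12.6% of all distal regions had any. Of the 6 without it, 5 stood between 31376 and 222251 bp from the nearest early G1 peak. The tallest, at chr16:77533801-77534225, had a height of 46.7, and the nearest H3K27ac peaks were 222251 bp away in early G1, 463776 bp in S and 333251 bp in G2/M. The regions at chr9:96362326-96362625 and chr3:39508526-39508925 had heights of 43.6 and 44.7, with the nearest peaks of any other fraction at 33101 and 59001 bp. At chr4:148755651-148755975 the height was 45.2, and a G2/M peak (height 15.2) lay 651 bp away. The region at chr9:95566926-95567500, with a height of 41.5, was listed for H3K27me3 in all 4 fractions and lay 4226 bp from an H3K4me3 peak. The sixth of the 7, at chr16:26062751-26063075, had a height of 38.8, an H3K4me1 peak in late G1 alone (height 13.1) and an S-phase H3K27ac peak 3626 bp away. The last, at chr7:39667101-39667500, had a height of 42.0 and no H3K4me1, and lay 2551 bp from an H3K4me3 peak, with an early G1 H3K27ac peak (height 41.6) at 4101 bp.

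Few of the regions were wide. The widest covered 1700 bp at chr19:302526-304225 with a height of 38.2, and the next 950 bp at chr12:116591276-116592225 with a height of 29.7. Both were without H3K4me1 in any fraction. Of the other 3 among the 5 widest, chr2:1721376-1722250 (875 bp, height 40.1) had H3K4me1 in late G1 (height 19.6) and G2/M (12.9), chr19:47481601-47482425 (825 bp, 36.5) had it in late G1 alone (12.7), and chr1:52429501-52430375 (875 bp, 38.8) had none.

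H3K4me1 was measured in separate libraries that the choice of regions did not use. Late G1 H3K4me1 peaks overlapped 342 of the 9037 regions, or 3.78% (3.40 to 4.20). Over all distal H3K27ac regions the share was 3.66%, so the late G1 share is near the background and says nothing particular about these regions. Early G1 H3K4me1 overlapped 0.907% of them (0.722 to 1.13), against 2.06% of all distal regions. H3K4me1 of S phase and of G2/M each overlapped 4.16% (3.76 to 4.59), against 5.66% and 5.41% of all distal regions. Regions of all 4 fractions, which are wider, were overlapped far more often, at 32.2% by an H3K4me1 peak of any fraction (30.6 to 33.9), against 10.5% of the regions only in late G1 (9.85 to 11.1) and 12.6% of all distal regions.

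Set against the distal regions found only in early G1, the H3K4me1 shares ran the opposite way in the early G1 list and in the other lists. In the early G1 H3K4me1 list the share was 0.907% of regions only in late G1 and 1.71% of regions only in early G1 (1.37 to 2.10). In the late G1 list it was 3.78% and 0.310% (0.178 to 0.504), in the S list 4.16% and 1.03% (0.771 to 1.34), and in the G2/M list 4.16% and 0.466% (0.299 to 0.692). The late G1 share divided by the early G1 share was 4.17 for regions only in late G1, 0.182 for regions only in early G1, 5.75 for regions only in S, 4.64 for regions only in G2/M and 1.46 for regions of all 4 fractions. A high ratio was thus shared with the regions found only in S and only in G2/M, and the regions only in early G1 were the class that stood apart. Over all distal regions the early G1 share was 2.06% and the late G1 share 3.66%, from lists of 1878 and 4017 peaks. The classes with a high ratio hold no early G1 H3K27ac peak by definition, unlike regions only in early G1 and regions of all 4 fractions. The early G1 H3K4me1 list overlapped 4 regions only in S and 11 only in G2/M, so those ratios rest on few regions.

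The lengths of the H3K4me1 lists differ, so the shares were also taken with the 1878 strongest peaks of each list, a choice made after the data were seen. Background shares were then alike, at 2.06%, 2.10%, 2.12% and 2.28% of all distal regions in cycle order, with early G1 first. Regions only in late G1 were overlapped at 0.907%, 2.18% (1.89 to 2.502), 1.505% (1.26 to 1.78) and 1.70% (1.45 to 1.99). Regions only in early G1 were overlapped at 1.71%, 0.136% (0.0546 to 0.280), 0.504% (0.330 to 0.738) and 0.0970% (0.0315 to 0.226). The late G1 H3K4me1 list gave the highest of the 4 shares for regions only in late G1, but at 2.18% against 2.10% it was near the background. The 4 shares are of the same regions and each list is 1 library, so their intervals do not compare the lists. Regions only in S were overlapped at 0.532%, 1.60% (0.827 to 2.77), 1.73% (0.924 to 2.94) and 2.13% (1.22 to 3.43), and regions only in G2/M at 0.373%, 1.05% (0.715 to 1.49), 1.02% (0.687 to 1.45) and 2.07% (1.58 to 2.65). The difference between fractions and a difference between single libraries cannot be told apart here.

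**Figure D3:**
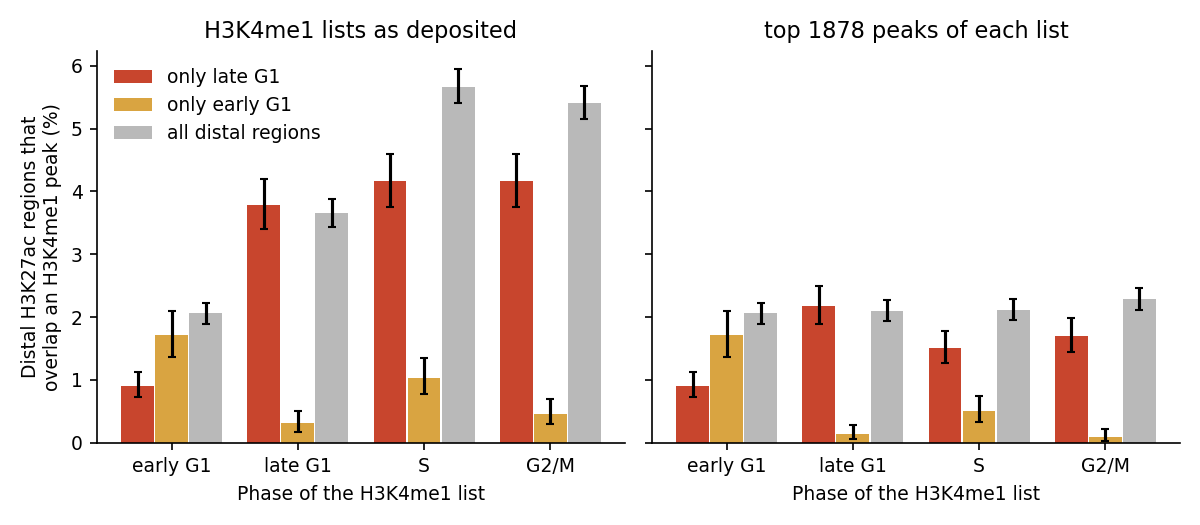
Share of distal H3K27ac regions overlapping an H3K4me1 peak of each fraction, for regions only in late G1 (red), only in early G1 (yellow) and all distal regions (grey), with exact 95% intervals. Left, the lists as deposited; right, the 1878 strongest peaks of each. Red stands above yellow in the late G1, S and G2/M lists and below it in the early G1 list.

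H3K27ac peaks with stronger scores overlapped late G1 H3K4me1 more often, and they were also longer. For regions only in late G1 the median length was 125 bp below the list's median score, 250 bp in deciles 6 to 9 and 337.5 bp in the strongest decile. A longer peak can meet an H3K4me1 peak more readily, and strength and length were not separated. Among regions below the list's median score, 2.51% overlapped late G1 H3K4me1 (2.15 to 2.91), against 2.21% of shared distal late G1 peaks below it (1.77 to 2.73). In deciles 6 to 9 the shares were 7.09% (6.07 to 8.22) and 5.63% (5.03 to 6.27), and in the strongest decile 21.0% (13 of 62 regions, 11.7 to 33.2) and 11.2% (9.72 to 12.8). In each of the 3 ranges the intervals of the classes overlap. Taken decile by decile, the share was higher for regions only in late G1 in every decile, with overlapping intervals in each. It was 2.45% against 2.44% in the third decile and 8.84% against 5.67% in the eighth. In deciles 6 to 9 the regions only in late G1 were shorter, with a median of 250 bp against 325 bp. Strength was not matched within this range: from decile 6 to 9 their number fell from 897 to 236, while the shared peaks rose from 1143 to 1607. The H3K4me1 lists of early G1, S and G2/M all went the other way in deciles 6 to 9. Early G1 H3K4me1 overlapped 1.23% of regions only in late G1 (0.821 to 1.78) and 3.23% of the shared peaks (2.77 to 3.73). The S-phase list gave 7.05% (6.03 to 8.18) and 9.24% (8.48 to 10.04) in the same deciles. The G2/M list gave 6.47% (5.50 to 7.56) and 8.58% (7.85 to 9.35).

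**Figure D4:**
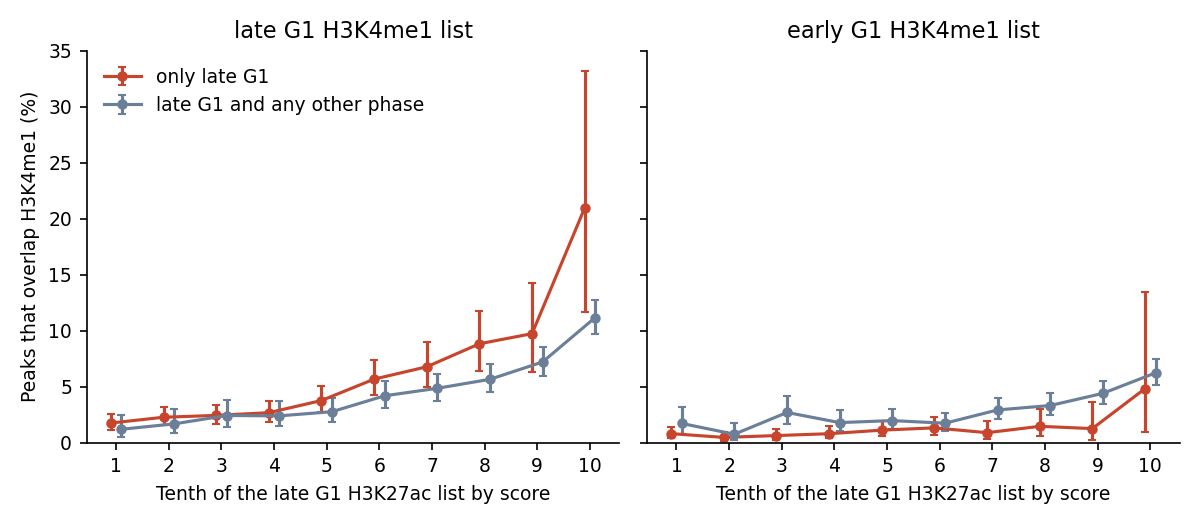
Share of distal late G1 H3K27ac peaks that overlap an H3K4me1 peak of late G1 (left) or early G1 (right), by decile of the late G1 H3K27ac list (10 is strongest), for peaks only in late G1 (red) and shared with another fraction (blue), with exact 95% intervals. In the strongest decile the late G1 shares are 21.0% and 11.2%.

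Of the 9037 regions, 8090 overlapped no H3K4me1 peak, 756 overlapped 1 fraction, 156 overlapped 2, 32 overlapped 3, and 3 overlapped all 4. Of the regions with any H3K4me1, 20.2% had it in more than 1 fraction (17.7 to 22.9), against 25.7% over all distal regions with any (24.3 to 27.2). Late G1 alone accounted for 212, S alone for 244, G2/M alone for 242 and early G1 alone for 58. The lists behind these counts hold 4017, 6280, 6156 and 1878 peaks, and the counts were not taken over all distal regions. The regions with late G1 H3K4me1 were wider and taller than those without, with median widths of 225 and 150 bp and median heights of 23.03 and 20.7. Seen from the H3K4me1 side, 10.4% of the distal late G1 H3K4me1 peaks lay on a region only in late G1 (9.35 to 11.4), against 5.21% of the early G1 peaks (4.16 to 6.43), 7.28% of the S peaks (6.58 to 8.03) and 7.17% of the G2/M peaks (6.49 to 7.91). In the same order, regions of all 4 fractions held 9.38%, 13.9%, 12.3% and 10.3% of the distal H3K4me1 peaks. Regions only in early G1 held 0.475%, 5.72%, 1.03% and 0.458%. The lists differ in length, and a preference of any list for a class of regions was not tested. The late G1 H3K4me1 peaks on regions only in late G1 had a median height of 14.4. The median was 14.3 for late G1 H3K4me1 peaks on regions of all 4 fractions and 13.8 for those on no H3K27ac region.

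Single regions show the spread behind these shares. After chr9:19969376-19969700 and chr16:26062751-26063075, the strongest regions with late G1 H3K4me1 were chr10:133593326-133593725 (H3K27ac height 39.2, H3K4me1 height 14.6), chr22:24296576-24296975 (score -1.33, height missing) and the wide region on chromosome 2 described above. The region on chromosome 10 lay 2526 bp from an H3K4me3 peak and 6023551 bp from the nearest region of all 4 fractions. At chr10:10336026-10336300 (height 36.6) H3K4me1 was listed in late G1 (19.3), S (20.1) and G2/M (20.8), and the nearest H3K27ac peak of any other fraction was 66701 bp away, in G2/M. This place carried H3K4me1 in 3 fractions and a called H3K27ac peak in late G1 alone.

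Overlap with the opposing mark was rare. Late G1 H3K27me3 peaks overlapped 81 of the 9037 regions, or 0.896% (0.712 to 1.11), against 0.646% of all distal regions. The early G1 share was 0.664% (0.507 to 0.854), the S share 0.498% (0.363 to 0.666) and the G2/M share 0.697% (0.536 to 0.891), against 0.586%, 0.42% and 0.463% of all distal regions. In any fraction, 108 regions overlapped H3K27me3, or 1.20% (0.981 to 1.44), against 0.953% of all distal regions, and 29 did so in all 4. For the count in all 4, no share over all distal regions was computed. Of the 81 with late G1 H3K27me3, 8 also had late G1 H3K4me1, against 342 of all 9037 regions (3.78%). This pair of marks was not counted over all distal regions, and 8 regions are few. Other regions with late G1 H3K27me3 that were strong by score were chr7:155121201-155121525 (height 39.4), with H3K27me3 in all 4 fractions and late G1 H3K4me1, and chr15:93785701-93786175 (35.5), with H3K27me3 in late G1, S and G2/M and H3K4me1 in early G1. At chr9:14723676-14724175 (34.5) H3K27me3 was again listed in all 4 fractions, and a region of all 4 fractions lay 76 bp away.

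Many of the regions lay beside a peak of another fraction that they did not touch. The median distance to the nearest H3K27ac peak of another fraction was 1901 bp (quartiles 326 and 33576). It was within 500 bp for 32.3% of them (31.3 to 33.3) and within 100 bp for 10.2% (9.63 to 10.9). At the other end, 3447 regions (38.1%) lay more than 10 kb from any peak of another fraction. The regions of the other fractions were closer still to a foreign peak, within 500 bp for 47.8% of those only in early G1 (46.4 to 49.2), 48.9% of those only in S (45.3 to 52.6) and 58.6% of those only in G2/M (56.8 to 60.4). Their foreign lists include the long late G1 list. For the regions only in late G1, the neighbour within 500 bp was an early G1 peak for 22.4%, a G2/M peak for 17.7% and an S peak for 8.25%, an order that follows list length.

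Width and height were much alike near to and far from a foreign peak. Regions within 500 bp of a foreign peak and regions more than 10 kb from any had median widths of 150 bp each and median heights of 20.9 and 20.7. Late G1 H3K4me1 overlapped 2.91% of the regions within 500 bp (2.33 to 3.59), 4.19% of those from 500 bp to 10 kb (3.46 to 5.02) and 4.21% of those beyond 10 kb (3.56 to 4.93). Early G1 H3K4me1 overlapped 1.23% (0.866 to 1.70), 0.860% (0.546 to 1.29) and 0.667% (0.423 to 0.9995) in the same order. These shares rest on 36, 23 and 23 regions, and their intervals overlap. The S-phase list gave 4.08%, 4.53% and 3.95%, and the G2/M list 4.05%, 4.003% and 4.38%.

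The nearest H3K27ac region of all 4 fractions, proximal or distal, lay at a median distance of 126426 bp (quartiles 16826 and 416226). It was within 10 kb for 21.4% of the regions only in late G1 (20.5 to 22.2), within 100 kb for 45.7% (44.7 to 46.7) and within 1 Mb for 91.4% (90.8 to 91.9). Over all distal regions not themselves listed in all 4 fractions, the shares were 26.7%, 49.7% and 92.2%. The regions only in early G1 had a median of 112201 bp, those only in S 72963.5 bp and those only in G2/M 75676 bp. Distal regions shared by late G1 and 1 or 2 other fractions had a median of 82013.5 bp. Regions only in late G1 thus had the longest median of these classes and the lowest share within 10 kb. Regions only in early G1 were close, with 23.2% within 10 kb (22.1 to 24.4), and the 2 intervals meet. The classes were not compared with H3K27ac lists of equal length. Of the regions, 29 lay 1 bp from such a region, directly beside it on the grid, among them chr6:57289351-57289850, chr2:175791201-175791450 and chrX:148762701-148762950. The regions within 10 kb of a region of all 4 fractions and those beyond 1 Mb had the same median width, 150 bp, and overlapped late G1 H3K4me1 at 3.16% (2.42 to 4.04) and 3.59% (2.40 to 5.14). The distance to H3K4me3 peaks, beyond the limit the rule set, was 47276 bp at the median, against 37001 bp for regions only in early G1 and 46851 bp for distal regions of all 4 fractions.

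**Figure D5:**
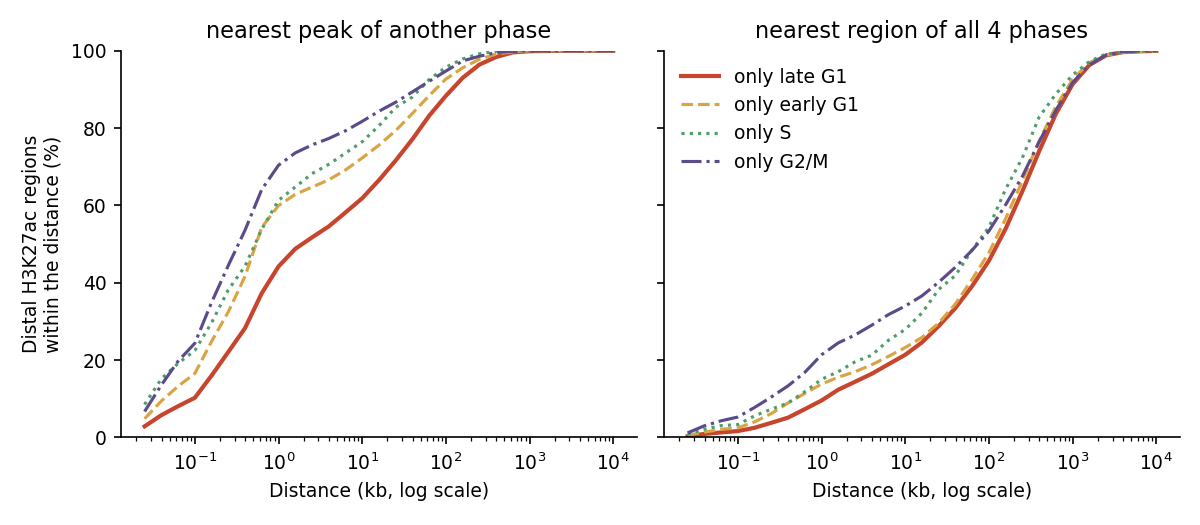
Cumulative share of distal H3K27ac regions within a given distance (log scale, kb) of the nearest H3K27ac peak of another fraction (left) and of the nearest H3K27ac region of all 4 fractions (right), for regions only in late G1, early G1, S or G2/M. The late G1 curve is the lowest on the left at every distance up to 100 kb: 44.2% of regions only in late G1 lie within 1 kb, against 60.0%, 61.3% and 70.4% in the other classes.

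The regions lay on chromosomes 1 to 22 and on the sex chromosomes, and some came in groups. Among chromosomes 1 to 22 and X, chromosome 21 had the highest share of late G1 only regions among its distal regions, 38.6% (33.7 to 43.7). Chromosome 19 had the lowest, 25.7% (21.3 to 30.6), around 31.9% over all. The Y chromosome was left out of this ranking. Per Mb between the outermost 4C sites, chromosome 19 held 1.56 regions only in late G1 and 2.20 only in early G1, while chromosome 21 held 3.80 and 1.21. Regions within 5 Mb of the outermost 4C site of their chromosome made up 6.67% (6.17 to 7.21), against 8.85% of the regions only in early G1 (8.09 to 9.66) and 6.75% of all distal regions. When regions up to 12.5 kb apart were joined, 4826 (53.4%) stood alone and 1891 (20.9%) fell into 518 runs of at least 3. The same joining placed 13.2% of the regions only in early G1 and 14.9% of the distal regions of all 4 fractions in such runs. These classes are smaller, and their smaller numbers were not allowed for.

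The largest run, singled out after its value was seen, held 16 regions within 64.4 kb at chr21:27432701-27497125. Their median height was 18.7 and the tallest stood at 27.7. The same span held 39 distal regions in all, of which 16 had an early G1 peak and 7 a peak in all 4 fractions, and late G1 H3K4me1 overlapped 2 of the 16. The next runs lay on chromosome 3, with 11 regions at chr3:61855551-61877250 and 10 at chr3:61655651-61691750. Both also held regions of all 4 fractions, 2 and 5. Of the following runs, both with 9 regions on chromosome 1, the run at chr1:145235401-145263075 held no region of all 4 fractions, the nearest being 14951 bp away, and the run at chr1:232678126-232714075 held 2.

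4C-seq reads from the GATA6 and SOX17 viewpoints, genes of endoderm transcription factors, were counted at restriction sites within 5 kb of these regions on the viewpoint's own chromosome. Sites within 10 kb of the viewpoint were left out, and the counts were divided by all remaining reads on that chromosome. From GATA6, whose chromosome 18 held 230 of the regions, the early G1 share was 3.98%, the late G1 share 3.88%, the S share 3.97% and the G2/M share 3.78%, over 619 sites. From SOX17, whose chromosome 8 held 435 of them, the shares were 1.95%, 1.90%, 1.89% and 1.95% in the same order, over 1043 sites. Late G1 was not the highest in either series. For distal late G1 regions shared with another fraction the GATA6 shares were 2.31%, 2.11%, 2.35% and 1.97%, and the SOX17 shares 1.33%, 1.20%, 1.21% and 1.18%. Most GATA6 reads at regions only in late G1 came from within 1 Mb of the viewpoint, where 9 of the 230 regions lay: 227212 of 342045 early G1 reads, 209005 of 302886 late G1 reads, 162352 of 226590 S reads and 287020 of 419056 G2/M reads. The shares beyond 1 Mb have another denominator, only the reads of the chromosome beyond 1 Mb, and are not parts of the shares above. They were 4.33%, 4.34%, 4.62% and 4.65% from GATA6 and 3.26%, 3.28%, 3.53% and 3.53% from SOX17. Levels differ between classes with the number and position of their sites, so only the same class is set side by side across fractions. The reads are PCR products and not independent molecules, and each share rests on 1 library.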

How the data were processed

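Peak lists of 16 ChIP-seq libraries and a 4C table of 8 libraries were used. Per the submitters' processing notes, Bowtie 0.12.7, hg19 and mm9 were involved, with no step assigned to any of them. The peak calling, with any use of the inputs, was not given in the sources used here. In the deposited lists, which have no header, the signal in column 6 was read as peak height and the score in column 7 as a strength, both from the values. A height of 0, as on every peak of the chromosomes coded 22 to 24, was treated as missing. The deposited 4C table holds counts, whole-number reads per restriction site, and the site with the most reads was taken as the viewpoint.

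Peaks were merged at an overlap of 1 bp, and distances run from end to start, so that adjacent regions lie 1 bp apart. Percentiles and deciles rank the 32521 late G1 peaks by score. The interval routines were tested on simulated data against a direct count. Python 3.11.15, numpy 2.4.6, pandas 2.3.3, scipy 1.17.1 and matplotlib 3.10.9 were used. No p-value was computed.

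Regions named are the 8 strongest by score, the 5 widest, the 5 strongest with late G1 H3K4me1, the 6 strongest with H3K4me1 in at least 3 fractions or late G1 H3K27me3, the 3 closest to a region of all 4 fractions and 3 on either side of the 2.5 kb limit. Members, comparisons and rules were chosen with earlier results of these data known. Alternatives changed the overlap, the lists, the limit, the width and the fractions compared. No annotation of hg19 was used here, so no gene names are given and planned gene lists were not applied.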

Additional observations from a re-analysis of the deposited data

How the results depend on the processing

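Of 63 values under alternative settings, 35 moved and 28 did not, by the 95% interval of the reported share or median or, for a count of regions, by a factor of 1.5; where they moved, the cause was not tested beyond what each setting changes by its construction. The values as reported were 9037 regions, a median width of 150 bp, a median percentile of 30.7, a late G1 H3K4me1 share of 3.78% and a median distance of 126426 bp to a region of all 4 fractions. In the same order, peaks above the median score of each H3K27ac list gave 3968 regions, 250 bp, 65.5, 7.08% and 271326 bp. Equal numbers of H3K27ac peaks gave 1590 regions, 300 bp, 77.5, 7.61% and 256851 bp. Peaks of at least 250 bp gave 3151 regions, 300 bp, 65.7, 8.03% and 326326 bp. By construction these 3 settings keep the stronger or wider peaks. Where a peak counted as shared only with 50% of it covered, the width was 175 bp, the percentile 35.4, the H3K4me1 share 4.34% and the distance 112951 bp. Where peaks within 500 bp counted as shared, the share was 4.20% and the distance 168164 bp. A limit of 10 kb to H3K4me3 gave a distance of 140176 bp, and no limit gave a share of 3.19% and a distance of 118126 bp. Without the S list the percentile was 31.7, without the G2/M list 32.8 and without the early G1 list 33.5. An H3K4me1 peak within 500 bp was found for 6.97% and within 1000 bp for 9.46%. The distance was 214701 bp to distal regions of all 4 fractions and 719826 bp to those overlapping H3K4me3. Removing regions with H3K27me3 moved none of the 5 values. The 8 counts within the factor of 1.5 ran from 6120, with peaks within 500 bp as shared, to 12883, with no limit to H3K4me3. Chosen after the data were seen, regions more than 10 kb from other fractions' peaks gave a share of 4.21%, equal H3K4me1 lists 2.18%, and regions below and above the median score 2.51% and 7.46%. No paired analysis was possible because each group holds 1 library. The number of reads behind the ChIP lists is unknown, so a missing peak cannot be told from low depth.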
